A study of Rattus norvegicus with 6 samples.

Results

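Ki-67, the lamins, the lamin-binding envelope proteins and the HMGB proteins shape the nucleus and its chromatin, and 10 genes of this kind were followed in replicating and quiescent rat β-cells: Mki67, Lmnb1, Lmnb2, Lmna, Lbr, Tmpo, Hmgb1, Hmgb2, Hmgb3 and Kpna2. They were taken by name from the array's own annotation, where all 10 were found on 28 of 45598 probes. Lamins are intermediate filament proteins that line the inner nuclear membrane; the B-type lamins (Lmnb1, Lmnb2) stay attached to membranes, whereas A-type lamins (Lmna) are a feature of differentiated and mechanically stressed cells. The lamina is taken apart when cells enter mitosis and rebuilt at its end, when Lbr and Tmpo, partners of the lamins, reattach chromatin. Ki-67 coats mitotic chromosomes and is the standard marker of cycling cells. HMGB proteins bend DNA without sequence preference, and Kpna2 (importin α) carries cargo through nuclear pores, lamins and spindle factors among it.

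Islets of young adult male Wistar rats were cultured overnight in 5.5 mM glucose with 10 µM EdU, a thymidine analogue that is built into newly made DNA. The islets were then dispersed, and the cells were fixed, permeabilised and gated on scatter and on Newport Green, a dye that binds zinc. EdU-positive cells of the β-cell gate made up the replicating group and EdU-negative cells of the same gate the quiescent group. Both groups therefore had the same EdU exposure, fixation and gate. They were not alike in cell number: the paper reports far fewer replicating than quiescent cells per pancreas, and less RNA from them before amplification. There were 3 islet preparations of 4 pooled rats, and each gave 1 array per group (n = 3 per group). All values below are the deposited log2 normalized intensities, and a log2 ratio is replicating over quiescent within a preparation. Probe positions are those of the array files on the rat build rn4, and exon or UTR annotation of that build was not used here. A level on this scale depends on the probe, so levels are compared between arrays and not between genes. In sorted populations, fewer cells that express a gene and less of its RNA per cell cannot be told apart.

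The quiescent arrays varied more than the replicating ones. Correlations across probes were between 0.967 and 0.986 among the replicating arrays, but only 0.654 between the quiescent arrays of preparations 2 and 3. The quiescent array of preparation 2 was the least like the rest, with r of 0.654 to 0.83 with the other arrays of both groups. It also had the most spots marked as outliers, 1583 against 252 to 299. The quiescent array of preparation 3 had an r of 0.964 with the replicating array of preparation 1, above its r of 0.867 with the quiescent array of preparation 1. The share of probes well above background ran from 80.8% to 98.4%, the highest being the quiescent array of preparation 2, and no spot was saturated. Insulin probes were bright in both groups, with Ins1 between 15.92 and 17.20 on all arrays, and 9 of 9 β-cell markers found were well above background on every array. A gene was called, by the selection rule of the study, when its unadjusted limma p was 0.05 or less and it differed by 1 or more on the log2 scale. On their brightest probe, 6% of RefSeq genes were called higher and 2.54% lower, the shares to hold beside the marker counts that follow. Markers of some other cells were higher in the replicating group. Of 9 mesenchymal markers, Col1a2, Col3a1 and Vim were called higher (3 of 9), with a summed intensity of 13142 to 37998 in replicating and 4744 to 6489 in quiescent arrays. Of 6 markers of α-, δ- and PP-cells, Gcg, Sst and Ppy were (3 of 6), with sums of 24429 to 95819 and 8552 to 18819. The sums overlapped between groups for leukocyte (7717 to 8338 and 3800 to 8885; Cd68 and Cd74 called higher), acinar and duct (28659 to 86977 and 34407 to 71891; Prss1 called higher), endothelial (4416 to 10025 and 5490 to 15209; 0 of 6 called higher) and β-cell markers (250322 to 318890 and 154561 to 350544; Mafa called lower). Of the 9 β-cell markers, 3 had a log2 ratio above 0 (Ins1, Ins2 and Iapp, the brightest ones), with a median of -0.56. The rest ran from -1.01 (Mafa) to -0.07 (Slc30a8). Of the 8 acinar and duct markers, 3 had a log2 ratio above 0, with a median of -0.21. The part of these other cells in the results below was not tested.

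Of the 10 genes, 6 were called higher in replicating β-cells: Mki67, Lmnb2, Lbr, Tmpo, Hmgb2 and Kpna2. None was called lower. The same rule called 4.44% of all probes higher and 4.18% lower (2023 and 1905 probes; 662 and 3193, or 1596 and 5862, with signals scaled to the 75th percentile of each array), and 6% and 2.54% of RefSeq genes on their brightest probe. No probe on the array passed an adjusted p of 0.05 (0%) in limma, although 4379 had an unadjusted p under 0.05, and the smallest adjusted p among the 28 probes was 0.120. The median log2 ratio of the 10 genes was 2.01, beside -0.07 over all probes and 0.01 over RefSeq genes on their brightest probe, and it was 1.63, 1.39 and 1.09 in preparations 1, 2 and 3. Of the 28 probes, 12 were called higher and 0 lower. In 7 of the 10 genes (the 6 called and Lmna) every replicating array lay above every quiescent array, as did 9.01% of all probes. All 28 probes were well above background on all 6 arrays. In all 10 genes the spread between quiescent arrays was larger than between replicating arrays (SD of 0.13 to 2.02 against 0.09 to 0.36), as in 85.8% of all probes.

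**Figure D1:**
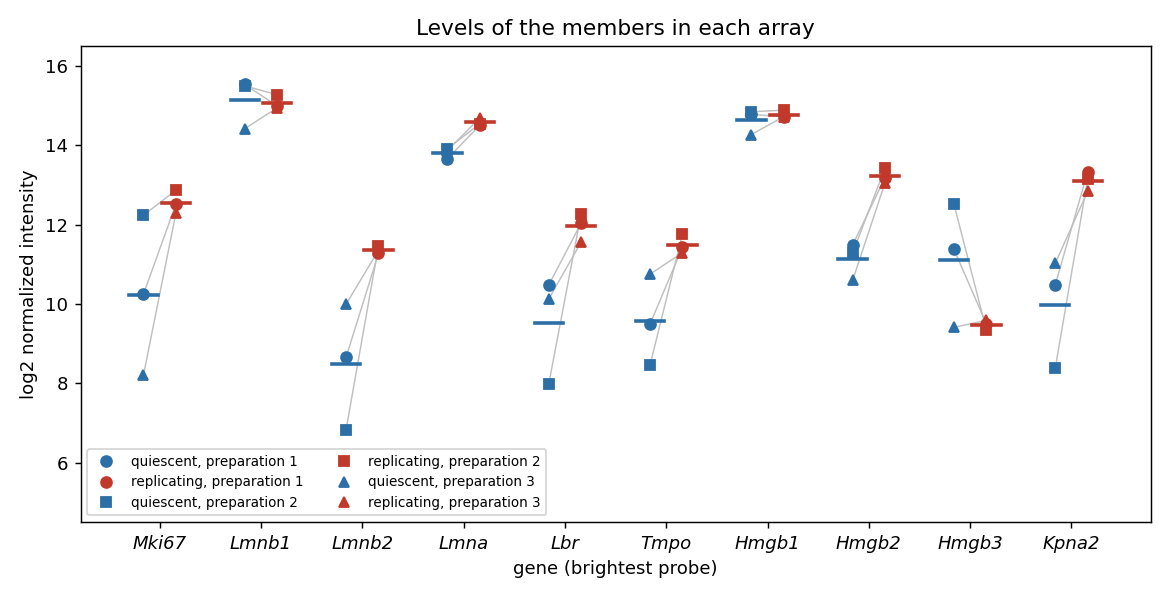
Log2 normalized intensity of the brightest probe of each gene, with 1 symbol per array, shapes for the 3 preparations, grey lines joining the arrays of a preparation and bars for the group means (n = 3). The replicating arrays of Mki67, Lmnb2, Lmna, Lbr, Tmpo, Hmgb2 and Kpna2 lie above all quiescent arrays, those of Lmnb1 and Hmgb1 overlap them, and Hmgb3 is lower in preparations 1 and 2 only.

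Mki67 encodes Ki-67, the protein of the mitotic chromosome surface. It had 4 probes, starting between bases 8679 and 9702 of a long transcript, and all 4 were called higher. The probe with the steadiest ratio, chr1:195314463-195314522 on the minus strand of rn4, read 12.32, 11.93 and 11.58 in the replicating arrays of preparations 1, 2 and 3 and 8.77, 8.81 and 8.38 in the quiescent ones. The groups were far apart in every preparation, with a log2 ratio of 3.29 ± 0.31, a 9.81-fold difference (limma adjusted p = 0.120). Here and below, ± after a gene's log2 ratio is limma's SE (n = 3), whose variance is drawn towards that of all probes. It is therefore not the spread of the 3 ratios alone. The brightest probe, whose 60 bases are spread over 2685 bases of the genome and so cross a splice junction (chr1:195310343-195313027), read 12.51, 12.86 and 12.28 in the replicating and 10.25, 12.23 and 8.20 in the quiescent arrays. On this probe the quiescent array of preparation 2 lay within 0.63 of its replicating partner, while the gap in preparation 3 was 4.08. Its log2 ratio was 2.33 ± 0.69 (limma adjusted p = 0.475), and it was no longer called without preparation 1 (log2 ratio of 2.36) or without preparation 3 (1.45). The other probes had log2 ratios of 2.35 ± 0.41 and 2.52 ± 0.35 (limma adjusted p = 0.356 and 0.226).

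The lamins did not share 1 pattern. Lmnb2, lamin B2, was high and even in replicating cells at 11.27, 11.45 and 11.35, and lower and scattered in quiescent cells at 8.66, 6.83 and 9.99. Its log2 ratio on this probe (chr7:10319495-10319554) was 2.86 ± 0.66, a 7.28-fold difference (limma adjusted p = 0.475). The other Lmnb2 probe, closer to the 5′ end (chr7:10316745-10316804), read 10.04, 9.56 and 10.21 against 9.07, 11.42 and 8.81. There the quiescent array of preparation 2 was the highest of all 6, preparations 1 and 3 had log2 ratios of 0.97 and 1.39 and preparation 2 one of -1.86, so that the mean was 0.17 ± 0.70 (95% interval -1.63 to 1.96). The probes of Lmnb2 thus disagreed mainly in preparation 2.

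Lmna, which gives lamins A and C, read 14.50, 14.54 and 14.68 in replicating and 13.66, 13.91 and 13.87 in quiescent arrays on its brighter probe (chr2:180595763-180595822). The groups did not overlap and the ratios of 0.84, 0.63 and 0.82 were the most even of the 10 genes. The log2 ratio of 0.76 ± 0.30 was under the fold limit (1.70-fold, 95% interval -0.01 to 1.54, limma adjusted p = 0.475). The second Lmna probe gave -0.08 ± 0.38, with an interval of -1.06 to 0.90.

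Lmnb1, lamin B1, had a single probe (chr18:52505697-52505756), and its groups overlapped: 14.99, 15.27 and 14.94 in replicating arrays and 15.53, 15.49 and 14.41 in quiescent arrays. Its log2 ratio was -0.08 ± 0.36 (limma adjusted p = 0.930), with a 95% interval of -0.997 to 0.839. The interval was 1.17 to 4.56 for the brighter Lmnb2 probe and -1.63 to 1.96 for the other. The sequence of this probe is shown because of the repeat at its 3′ end, in capitals, which is the longest run of A and G in it and lies where lamin B1 has a run of glutamates:
Lmnb1 probe: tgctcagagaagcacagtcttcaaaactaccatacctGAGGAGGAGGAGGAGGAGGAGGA
The run has 23 bases. Only 4 other probes on the array held at least 18 bases of the same triplet repeat, those of Vom2r-ps20, LOC102553302, Pigr and Kcng1. All 4 were bright, with mean log2 values of 13.88 to 16.75 beside a median of 8.09 over all probes. Their log2 ratios ran from -0.37 to 0.23, and none was called. What the repeat adds to the Lmnb1 signal was not tested.

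On the brightest probes the ratio of Lmnb1 was below that of Lmnb2 in every preparation, by -2.94 ± 2.02 (SD, n = 3) on the log2 scale, and below that of Lmna by -0.84 ± 0.55. With 3 preparations a two-sided exact sign-flip test cannot go below p = 0.25, which is what both differences gave, also after adjustment over the 5 pairs of genes compared. The sizes depended on the probe: with the median of a gene's probes they were -1.59 and -0.42. In preparation 2 the second probes of Lmnb2 and Lmna had ratios of -1.86 and -0.80, below the -0.22 of Lmnb1.

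Lbr and Tmpo, partners of the lamins, were called higher as Lmnb2 was. Lbr, the lamin B receptor, which also reduces sterols, read 12.04, 12.27 and 11.56 in replicating and 10.47, 7.98 and 10.12 in quiescent arrays (chr13:97814520-97814579). The quiescent array of preparation 2 was the lowest, and the log2 ratio was 2.43 ± 0.65, a 5.39-fold difference (limma adjusted p = 0.475). Without preparation 2 it was 1.502. Tmpo, which encodes the LAP2 proteins that tether chromatin and, in the soluble form, A-type lamins, read 11.42, 11.76 and 11.29 against 9.49, 8.46 and 10.75 on its brighter probe (chr7:28099390-28099449). Both Tmpo probes were called, at 1.92 ± 0.58 and 1.64 ± 0.48 (limma adjusted p = 0.475 for both), and both differed least in preparation 3, by 0.54 and 0.50. Without preparation 1 the brighter one was not called (log2 ratio of 1.92), and without preparation 2 its log2 ratio was 1.24.

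**Figure D2:**
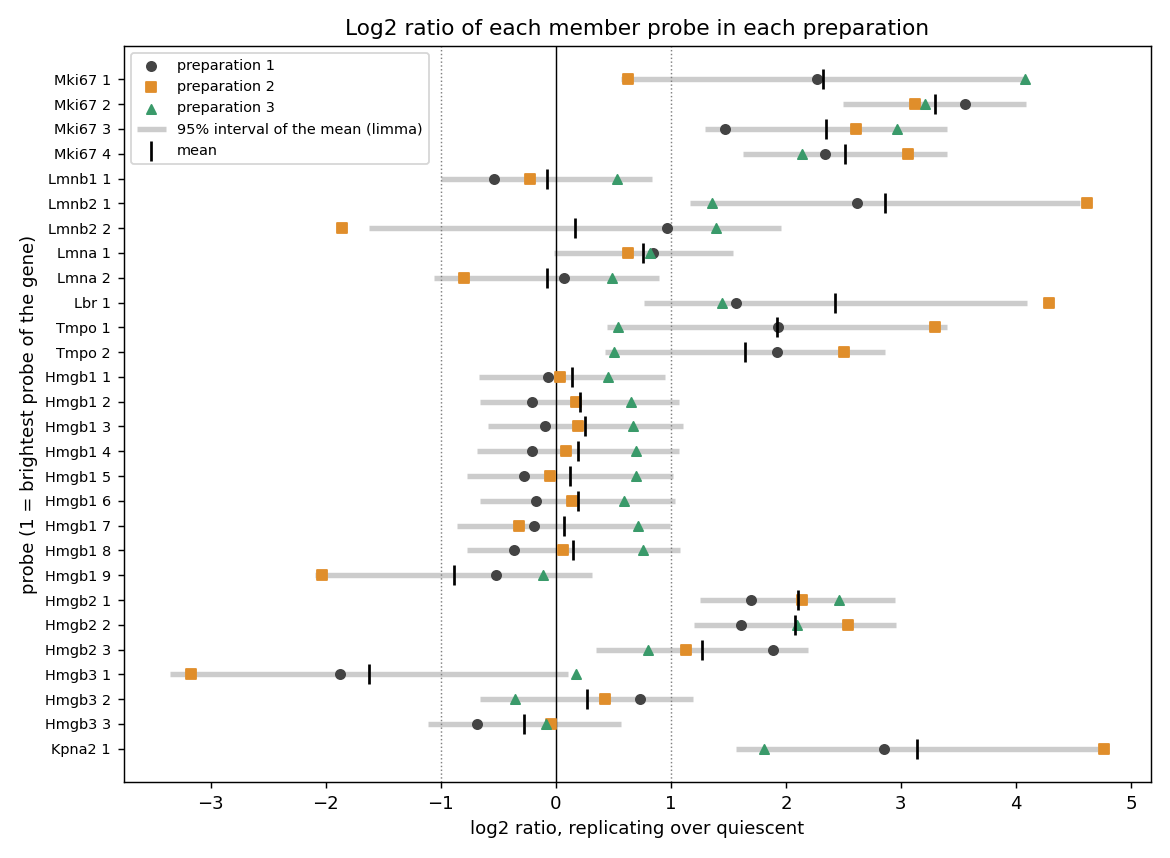
Log2 ratio of all 28 probes in preparations 1, 2 and 3 (symbols), with the mean (bar) and its 95% interval from limma (grey). Dotted lines mark log2 ratios of -1 and 1; all probes of Mki67, Hmgb2, Lbr, Tmpo and Kpna2 lie right of 0 in all preparations, whereas Lmnb2, Lmna and Hmgb3 differ between their own probes.

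The HMGB genes went separate ways. Hmgb2, the member most tied to dividing cells, was called on all 3 probes. Its brightest probe read 13.18, 13.43 and 13.06 in replicating and 11.49, 11.28 and 10.59 in quiescent arrays, so that the groups were apart by more than the spread within either. The log2 ratio of 2.10 ± 0.33, a 4.29-fold difference, was among the more even ones (1.70, 2.14 and 2.46 in preparations 1 to 3; limma adjusted p = 0.297). The second probe gave 2.08 ± 0.34 and the third, nearer the 3′ end, 1.27 ± 0.36 (limma adjusted p = 0.316 and 0.475). Hmgb1, the abundant and ubiquitous member, read 14.71, 14.88 and 14.72 against 14.78, 14.84 and 14.27 on its brightest probe. The array files place all 9 Hmgb1 probes on chromosome 16 of rn4 (this one at chr16:37462822-37462877), whereas RefSeq places the gene on chromosome 12 of GRCr8, so these positions are not given as those of the gene. The log2 ratio was 0.14 ± 0.32 (limma adjusted p = 0.847), with a 95% interval of -0.67 to 0.95, beside 1.26 to 2.95 for the brightest Hmgb2 probe. The 8 bright Hmgb1 probes had log2 ratios between 0.07 and 0.26, and values between 12.97 and 14.88 on all arrays. The ninth probe, far to the 3′ side and dim, read 7.57, 7.24 and 7.95 against 8.09, 9.27 and 8.06, a log2 ratio of -0.89 ± 0.47 (limma adjusted p = 0.482). On this probe all replicating arrays lay below all quiescent ones.

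Several of these probes read the same stretch of both genes, and their sequences are shown because the paralogues are alike there while their ratios are not. In the Hmgb2 probes capitals mark aligned bases unlike the Hmgb1 probe. Lower case holds both matches and bases outside the alignment, which has 1 gap for A_44_P1160610:
Hmgb1, A_44_P1368984: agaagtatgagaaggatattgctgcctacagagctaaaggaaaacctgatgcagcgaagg
Hmgb2, A_44_P1160610: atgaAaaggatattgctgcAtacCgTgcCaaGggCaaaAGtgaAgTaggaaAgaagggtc
Hmgb2, A_64_P107106: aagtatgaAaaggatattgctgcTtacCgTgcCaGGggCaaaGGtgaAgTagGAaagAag
Over 54 and 58 aligned bases, the Hmgb2 probes matched the Hmgb1 probe at 42 and 43 bases (77.8% and 74.1%). The log2 ratios of these probes were 0.21 for Hmgb1 and 2.10 and 2.08 for Hmgb2. The Hmgb2 probes overlap each other by 56 bases with 3 mismatches, so they are not independent readings. No probe of another gene name shared 25 bases in a row with an Hmgb2 probe.

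This was not so for Hmgb1. Of its 9 probes, 6 lie on top of each other at the stretch above and differ by a few bases. In the examples below, capitals mark bases unlike the most common base at that position, with 1 exception. The G just before the last base of A_44_P1369307 and A_44_P1361440 is in capitals but is the common base there. The uncommon base at that position is the final a of A_44_P1368431, left in lower case. The following examples show how near the probes are:
A_44_P1368431: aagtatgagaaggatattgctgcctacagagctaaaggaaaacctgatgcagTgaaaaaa
A_44_P1369307: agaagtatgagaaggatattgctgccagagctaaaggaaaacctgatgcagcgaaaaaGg
A_44_P1361440: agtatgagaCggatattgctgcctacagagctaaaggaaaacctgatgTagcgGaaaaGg
The second of these also lacks 3 bases that the others have. These 6 probes shared at least 25 bases in a row with probes of between 4 and 9 other gene names, among them Hmg1l1, an HMG1-like gene, and Ensembl transcripts without a symbol. Their log2 ratios were 0.12 to 0.26. The brightest probe, which gave the 0.14 above and all differences from Hmgb1 below, shared such a stretch with a probe of Hmg1l1. The readings of these 7 probes may therefore hold near-identical copies along with Hmgb1. The eighth bright probe shared no such stretch with another gene name. It holds the end of the coding sequence, with a run of 26 bases of A and G (capitals) that encodes the acidic tail, and had a log2 ratio of 0.07:
A_44_P1367456: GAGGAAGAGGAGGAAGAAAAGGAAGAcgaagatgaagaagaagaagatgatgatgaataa
The dim ninth probe shared none either.

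Hmgb3, a member found mainly in embryonic tissue and blood stem cells, read 9.50, 9.34 and 9.59 in replicating and 11.38, 12.52 and 9.41 in quiescent arrays on its brightest probe (chrX:157031092-157031151). It was lower in replicating cells of preparations 1 and 2 (-1.88 and -3.17) and slightly higher in preparation 3 (0.18), with a mean of -1.62 ± 0.68 (95% interval -3.35 to 0.10, limma adjusted p = 0.475). It was called lower without preparation 3 (log2 ratio of -2.52), and without preparation 2 its log2 ratio was -0.85 and it was not called. The other Hmgb3 probes had log2 ratios of 0.27 ± 0.36 and -0.27 ± 0.33 (limma adjusted p = 0.730 and 0.695), so its probes did not share a direction. The ratio of Hmgb2 was above that of Hmgb1 by 1.77, 2.11 and 2.01 in preparations 1, 2 and 3, a mean of 1.96 ± 0.17 (SD, n = 3). Hmgb2 minus Hmgb3 was 3.73 ± 1.52 and Hmgb3 minus Hmgb1 -1.76 ± 1.47. Each difference had the same sign in 3 of 3 preparations and the smallest p that the exact sign-flip test allows, 0.25. That of Hmgb3 minus Hmgb1 was -1.04 without preparation 2, and its sign was not shared by all preparations (exact p = 0.5) with either scaling to the 75th percentile.

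**Figure D3:**
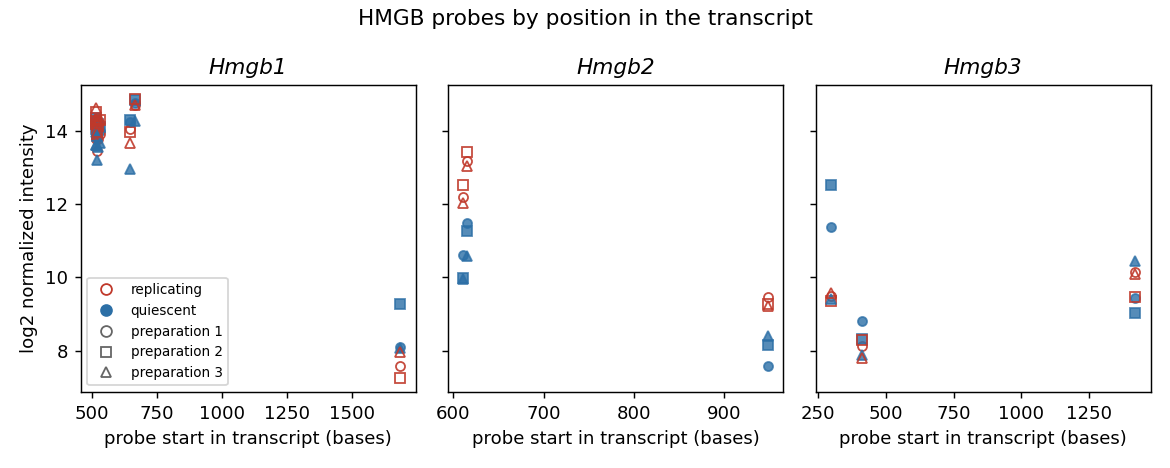
Log2 normalized intensity of each HMGB probe against its start in the transcript in bases, with open red symbols for replicating and filled blue symbols for quiescent arrays and shapes for the preparations. Replicating arrays lie above quiescent ones on the 3 Hmgb2 probes, whereas the groups overlap on the 8 bright Hmgb1 probes and on all 3 Hmgb3 probes.

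Kpna2 is the importin α that is most abundant in proliferating cells. Its single probe (chr10:96342220-96342279) read 13.33, 13.15 and 12.84 in replicating and 10.48, 8.38 and 11.02 in quiescent arrays. All replicating arrays were above all quiescent ones, and the log2 ratio of 3.14 ± 0.62, an 8.83-fold difference, was the largest of the 10 genes on their brightest probes (limma adjusted p = 0.468). The ratios were 2.85, 4.76 and 1.81 in preparations 1, 2 and 3.

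The 6 called genes were not scattered in the same way among quiescent arrays. In Lmnb2, Lbr, Tmpo and Kpna2 the quiescent array of preparation 2 was the lowest, at 6.83, 7.98, 8.46 and 8.38, and these genes had their largest ratio there. On the brightest Mki67 probe the same array was the highest quiescent one, and on that of Hmgb2 it was the middle one. All 6 genes were also called without preparation 2. The number of probes called higher was then 13 of 28, and 1447 of 45598 over the array.

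The promoters of these genes were set beside the values because many late cell cycle genes carry CCAAT boxes, bound by NF-Y, together with a cell cycle homology region, TTTGAA or TTTAAA. In the 250 bases before each RefSeq gene start (assembly GRCr8, both strands), CCAAT together with TTTGAA or TTTAAA was found in 7 of the 10 genes and in 9.04% of all 33469 promoter windows. CCAAT and TTTGAA can share a base, as once in Mki67. Singly the motifs were found in 34% (CCAAT), 16.2% (TTTGAA) and 12.3% (TTTAAA) of the windows. Of the 6 genes called higher, 5 held both elements (all but Lmnb2), and of the 4 others Lmnb1 and Hmgb3 did. The first of 3 annotated starts was used for Hmgb3. The last 160 bases before the start are shown for 4 genes that were higher and for Lmnb1 and Hmgb1, which were not, with the 3 motifs in capitals. They lie at chr1:199952594-199952753 (Mki67, minus strand), chr16:37723951-37724110 (Hmgb2, minus), chr10:92445842-92446001 (Kpna2, minus), chr13:96095710-96095869 (Lbr, minus), chr18:52373779-52373938 (Lmnb1, plus) and chr12:11009076-11009235 (Hmgb1, plus) of GRCr8:
Mki67: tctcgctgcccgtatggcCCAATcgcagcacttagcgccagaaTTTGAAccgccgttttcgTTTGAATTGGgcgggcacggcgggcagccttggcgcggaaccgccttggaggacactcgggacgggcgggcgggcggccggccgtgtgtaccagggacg
Hmgb2: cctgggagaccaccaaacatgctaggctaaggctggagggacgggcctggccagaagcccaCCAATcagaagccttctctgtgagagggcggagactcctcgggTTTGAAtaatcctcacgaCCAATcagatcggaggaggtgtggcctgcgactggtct
Kpna2: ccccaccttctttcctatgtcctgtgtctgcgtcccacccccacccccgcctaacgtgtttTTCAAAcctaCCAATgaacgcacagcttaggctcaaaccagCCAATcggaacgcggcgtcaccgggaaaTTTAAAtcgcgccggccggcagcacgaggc
Lbr: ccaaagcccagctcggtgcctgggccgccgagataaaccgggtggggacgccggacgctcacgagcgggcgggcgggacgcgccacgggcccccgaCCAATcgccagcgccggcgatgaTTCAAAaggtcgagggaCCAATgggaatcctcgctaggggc
Lmnb1: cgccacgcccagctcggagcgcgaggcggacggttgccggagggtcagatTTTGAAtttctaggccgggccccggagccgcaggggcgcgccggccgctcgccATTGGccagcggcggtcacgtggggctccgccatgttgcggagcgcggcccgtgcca
Hmgb1: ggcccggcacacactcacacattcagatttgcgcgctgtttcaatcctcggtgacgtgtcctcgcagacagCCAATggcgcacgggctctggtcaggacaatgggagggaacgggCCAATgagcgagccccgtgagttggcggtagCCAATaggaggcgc
Over the full 250 bases Mki67 had 4 CCAAT and 2 TTTGAA, and Hmgb2 had 3 and 2. Hmgb1 had 3 CCAAT and neither TTTGAA nor TTTAAA, and Lmna and Lmnb2 had none of these motifs. A match is a stretch of letters and was not tested as a binding site.

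Genes that work with the lamina were followed as a list of 19, of which 17 were on the array (all but Sun2 and Syne2 by name). Of these 5 were called higher and 0 lower, with a median log2 ratio of 0.51. Vrk1, the kinase that releases chromatin from the envelope by acting on Banf1, had a log2 ratio of 2.01 ± 0.32, with ratios of 2.33, 1.78 and 1.93. Its substrate Banf1, a DNA-bridging protein, had 1.44 ± 0.54, with 0.14 in preparation 3. Zmpste24, the protease that matures prelamin A, had 1.64 ± 0.50, Lemd3, an inner membrane LEM protein, 1.46 ± 0.47, and Syne3, a nesprin, 1.06 ± 0.41. Emd, emerin, was not called, at 0.51 ± 0.38. Without preparation 1 this list had 1 call and without preparation 2 it had 2. Over all 45598 probes the calls higher also fell, from 2023 to 518 and 1447.

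Among 18 of 20 genes of nuclear import and the Ran cycle (not Kpna7 and Ipo5), 5 were called higher and 0 lower, with a median of 1.12. Tpx2, a spindle assembly factor that importin α holds in check, read 10.92, 10.85 and 10.83 in replicating and 7.04, 7.06 and 6.61 in quiescent arrays. Its log2 ratio of 3.97 ± 0.31 had an adjusted p below that of any of the 28 probes above (limma adjusted p = 0.0977). Cse1l, which returns importin α to the cytoplasm, had 2.08 ± 0.57, Kpnb1, importin β, 1.92 ± 0.58, Kpna3, another importin α, 1.53 ± 0.54, and the export receptor Xpo1 1.498 ± 0.335. Other importin α genes were not called: Kpna1 had 1.45 ± 0.69, Kpna4 -0.44 ± 0.32, Kpna5 -0.66 ± 0.43 and Kpna6 0.61 ± 0.33. Without preparation 1 the count fell to 1, and without preparation 3 it was 8. Over all 45598 probes the calls higher moved likewise, from 2023 to 518 and 5112.

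Of the other HMG proteins and HMGB partners, 15 of 16 were on the array (not Set), and 3 were called higher and 0 lower, with a median of 0.58. They were Hmgn2, a nucleosome-binding HMG protein, at 1.32 ± 0.33, Anp32e, a chaperone that removes the histone variant H2A.Z, at 1.52 ± 0.36, and Hmg20b, a member of a corepressor complex, at 1.41 ± 0.53. Hmga1 and Hmga2, the AT-hook members, were not called, at -0.03 ± 0.32 and -0.94 ± 0.64. None of this list was called without preparation 1, and 6 were without preparation 3 (518 and 5112 of all 45598 probes called higher).

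All 16 genes of the chromosome periphery and of Ki-67 partners were on the array, and 3 were called higher and 0 lower, with a median of 0.52. Kif15, a kinesin that Ki-67 brings to chromosomes, read 10.71, 10.92 and 10.38 against 6.93, 6.41 and 7.70, a log2 ratio of 3.66 ± 0.45 (adjusted p = 0.180). The heterochromatin proteins Cbx3 and Cbx5 had 1.98 ± 0.73 and 1.42 ± 0.53, and Cbx1, the remaining one, was not called at 1.60 ± 0.75. In the order Cbx3, Cbx5 and Cbx1, preparation 2 gave 4.07, 2.78 and 3.68 and preparation 3 gave 0.52, 0.46 and -0.11. Nifk, which binds the FHA domain of Ki-67, had 0.09 ± 0.42, and the nucleolar proteins Npm1 and Ncl had 0.67 ± 0.44 and 0.44 ± 0.33. The phosphatase partner Cdca2 went from -2.58 in preparation 2 to 2.65 in preparation 3. Without preparation 1 the list had 1 call, and without preparation 3 it had 5 (518 and 5112 of all 45598 probes called higher). The 4 medians were largest in preparation 2 (1.32, 1.72, 0.92 and 1.13 in the order given), whose quiescent array stood apart, and smallest in preparation 3 (0.14, 0.25, 0.05 and 0.02). Over 16581 RefSeq genes on their brightest probe the median was 0.01, and 0.08 and -0.04 in preparations 2 and 3. The calls were 5 of 17, 5 of 18, 3 of 15 and 3 of 16 genes, against 6% of RefSeq genes.

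**Figure D4:**
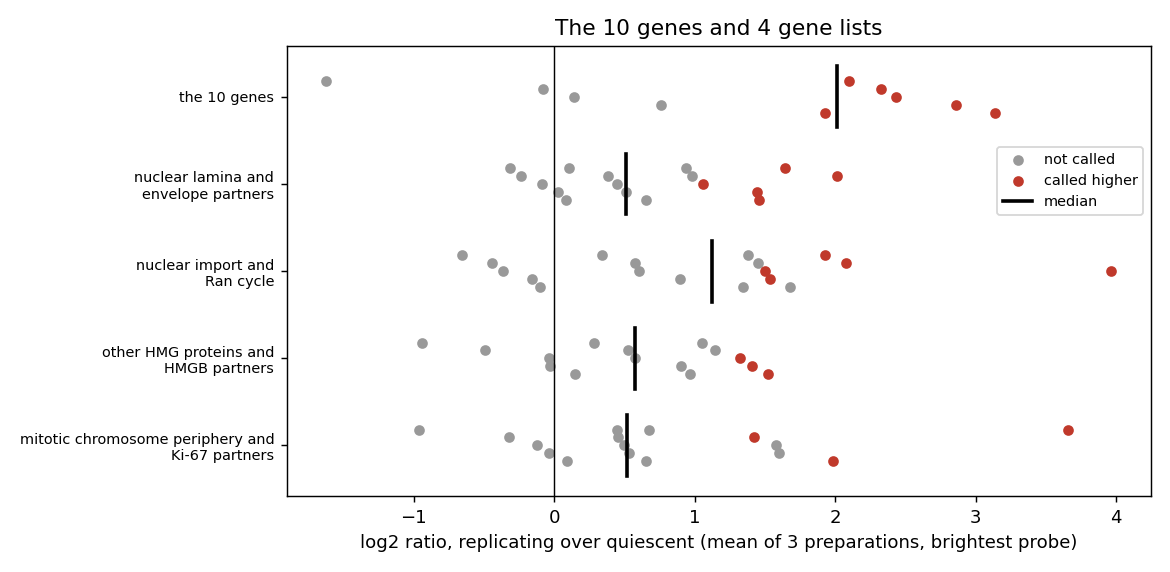
Log2 ratio (mean of 3 preparations) of the brightest probe of each of the 10 genes and of each gene on 4 lists, red where called higher and grey where not called, with black bars at the medians. The medians are 2.01 for the 10 genes and 0.51, 1.12, 0.58 and 0.52 for the lists in the order shown, and no gene of these lists was called lower.

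The genes whose profile over the 6 arrays was most like the brightest Mki67 probe, among 14348 genes with a RefSeq symbol and 1 probe each, were Lyz2 (r = 0.993), LOC103691349 (0.986), Hjurp (0.976), RT1-M6-2 (0.973) and Pdlim4 (0.972). Of these Hjurp, the chaperone that loads the centromeric histone, had a log2 ratio of 1.80, whereas the others had ratios of 0.20 to 0.90. The order rests on 6 arrays and on the chosen probe. With the steadier second Mki67 probe, a choice made after its values were seen, the 5 genes were Kdm1a, Gpr153, Ercc6l, Kif22 and Tpx2, with r between 0.993 and 0.998 and log2 ratios between 0.94 and 4.64.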

How the data were processed

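The authors amplified the RNA of sorted cells, hybridised Cy3-labelled cDNA to Agilent rat 8 × 60K arrays and read the scans with Feature Extraction 10.7.3.1, whose deposited files hold mean and background intensity per spot without normalization, and probe positions on rn4. The deposited log2 values had been background corrected with normexp and quantile normalized by the authors. Computing both steps here from the intensities, with an offset of 50, gave values within 0.000245 of them. Outlier-marked spots (252 to 299 per array, but 1583 on the quiescent array of preparation 2) and control spots were left out, and spots of a probe were averaged. limma 3.58.1 in R 4.3.3 was fitted to all 45598 probes with the islet preparation as a block, since each preparation gave both arrays, with p-values adjusted after Benjamini and Hochberg across every probe tested. The deviations from the group means correlated, within preparations 1, 2 and 3, with r of 0.0561, 0.242 and 0.258. A gene's values are those of its brightest probe unless stated. The SEs, intervals and p-values of limma use a variance per probe that is drawn towards that of all probes. They rest on 3 preparations on 1 slide. Genes named are all members with all probes, up to 6 called genes per list, and the 5 genes most like Mki67; genes of the lists that were not called, and the probes with repeats, were named after their values were seen. Members, lists and pairs were chosen with earlier results of these data known. Names came from the array files or, for 21109 probes, from RefSeq (GRCr8); promoters are RefSeq's. The fit was tested on simulated data. The number of arrays limits the precision.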

Additional observations from a re-analysis of the deposited data

How the results depend on the processing

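The 6 genes called higher were called under 10 of 13 other settings of the fit on the brightest probes. The exceptions were Tmpo with the processed signal scaled to the 75th percentile, Mki67 and Tmpo without preparation 1, and Mki67 without preparation 3. With the processed signal, whose median log2 ratio over all probes was -0.71, 662 probes were called higher and 3193 lower, and Hmgb2 minus Hmgb1 was 2.22. With normexp values at the 75th percentile, where that median was -0.39, 5862 probes were called lower, 719 passed the adjusted p, among them 5 members (Mki67, Lmnb2, Lbr, Hmgb2 and Kpna2), and Hmgb2 minus Hmgb1 was 2.20. With cyclic loess 204 probes passed, among them 1 member (Kpna2), and Hmgb1 turned to -0.11. Hmgb3 was the 1 member called lower under both of these normexp settings, on probes well above background and with a variance trend, which let 61 probes pass the adjusted p. Without the replicate block, that is without pairing by preparation, 878 probes were called lower and 99 passed, and the calls of members were the same. When a gene was given the median of its probes, Hmgb3 turned to 0.18, Hmgb3 minus Hmgb1 to 0.0337, Hmgb2 minus Hmgb3 was 1.90, Lmnb1 minus Lmnb2 -1.59 and Lmnb1 minus Lmna -0.42. The cause of these changes was not tested.

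Leaving out each preparation in turn gave 518 to 5112 probes higher and 63 to 5633 lower, 0 to 84 past the adjusted p, 0 to 1 members lower, and 4 to 6 higher, the lowest without preparation 1. Lmnb1 ranged from -0.38 to 0.15 and Hmgb1 from -0.0151 to 0.25. The lists, for which these settings were chosen after seeing the data, had 1 to 6 (lamina), 1 to 8 (import), 0 to 6 (HMG) and 1 to 5 (periphery) genes called higher, and the members 8 to 13 probes.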
